A study of Rattus norvegicus with 23 samples.

Results

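The genes described here are 5 textbook targets of the aryl hydrocarbon receptor (AhR) in rat liver: Cyp1a1, Cyp1a2, Cyp1b1, Tiparp and Aldh3a1. Each was represented by the probe set that named that gene alone and had the highest mean over 23 liver arrays, and the 5 stand among 14217 genes measured in this way. The first 3 are the cytochrome P450 enzymes of family 1, whereas Tiparp and Aldh3a1 belong to other families and share with them the receptor. The 5 genes did not move as a group: Cyp1a1 and Cyp1b1 passed the test with at least 1 compound, and the other 3 passed it with none when each compound was set against its own vehicle.

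The rats received 1 of 4 hepatotoxicants or a vehicle in 3 in-life studies. Alpha-naphthylisothiocyanate (ANIT, 100 mg/kg), a bile duct toxicant, was set against corn oil at 5 ml/kg, and methylenedianiline (MDA, 100 mg/kg), an aromatic amine that also injures bile ducts, against 35% ethanol at 2 ml/kg. The analgesic acetaminophen (APAP, 1000 mg/kg) was set against a second corn oil group, given 2 ml/kg, and the anti-inflammatory drug diclofenac (DCLF, 10 mg/kg) against water, given 10 ml/kg, all within another study. All rats were male Sprague Dawley, 6 to 8 weeks of age per the study's methods, and were dosed by oral gavage for 5 days, fasted overnight and necropsied on the day after the last dose. Each group held 3 rats except water, which held 2, and the left lateral lobe of each liver was hybridised to an Affymetrix rat array. In the group given corn oil at 5 ml/kg the labels carry distinct leading numbers but a shared final number, and were read as 3 rats.

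All levels below are log2 values after robust multi-array averaging (RMA), so a step of 1 is a doubling of signal. The number of arrays limits the precision. A gene was called changed when limma gave a Benjamini-Hochberg adjusted p under 0.05 over 31042 probe sets and the fold change was over 1.5, which is 0.58 on the log2 scale. Every error after a log2 change is its standard error, and each comparison has 3 rats per group unless water is part of it. Hepatocyte markers were high in all 23 samples, as the tissue label states: albumin, Alb, was never below 14.57 and apolipoprotein A1, Apoa1, never below 13.08. Within a group, pairs of arrays correlated at r = 0.987 to 0.995 over all probe sets. These are whole-liver values, in which fewer cells of a type and less RNA per cell cannot be told apart.

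AhR is a ligand-activated transcription factor. It waits in the cytosol with Hsp90 and co-chaperones, enters the nucleus once a planar aromatic ligand or a tryptophan-derived ligand binds, pairs there with Arnt, and binds DNA at a short core motif read GCGTG on either strand. Cyp1a1 is barely used by untreated liver and strongly inducible, Cyp1a2 is a constitutive hepatocyte enzyme, and Cyp1b1 is best known outside the hepatocyte. Tiparp and Ahrr act back on the receptor as repressors.

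The sequence just upstream of the gene start, as the promoter windows place it, was read from RefSeq (build GRCr8). Windows existed for 3 members, Cyp1a2, Cyp1b1 and Tiparp. Of these 3 only Cyp1b1 was called with any compound, and all 3 sequences are shown. Each is 250 bases, 5′ to 3′ on the strand of the gene, in lower case with the core GCGTG, or CACGC where it lies on the opposite strand, in capitals. They lie at chr8:66978150-66978399 (minus strand, Cyp1a2), chr6:21094315-21094564 (plus strand, Cyp1b1) and chr2:152063519-152063768 (plus strand, Tiparp).
Cyp1a2: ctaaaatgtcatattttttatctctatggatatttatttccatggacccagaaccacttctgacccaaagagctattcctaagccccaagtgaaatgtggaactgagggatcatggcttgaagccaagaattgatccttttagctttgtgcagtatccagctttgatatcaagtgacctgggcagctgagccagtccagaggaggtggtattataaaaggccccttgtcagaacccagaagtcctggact
Cyp1b1: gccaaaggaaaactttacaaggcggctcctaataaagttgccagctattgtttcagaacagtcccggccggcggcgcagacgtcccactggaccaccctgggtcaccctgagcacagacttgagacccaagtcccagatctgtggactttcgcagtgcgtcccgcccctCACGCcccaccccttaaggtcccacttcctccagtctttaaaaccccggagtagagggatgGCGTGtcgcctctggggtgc
Tiparp: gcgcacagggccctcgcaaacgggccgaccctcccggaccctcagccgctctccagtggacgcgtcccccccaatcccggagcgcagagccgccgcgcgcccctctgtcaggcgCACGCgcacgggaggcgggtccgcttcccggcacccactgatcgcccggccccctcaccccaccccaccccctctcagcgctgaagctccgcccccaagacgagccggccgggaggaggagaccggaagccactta

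The Cyp1b1 window held the core 1 time on the gene's strand, 20 to 16 bases before the start, and 1 time on the opposite strand, 81 to 77 bases before it. The first of these also matched the longer motif TNGCGTG, which contains the core. The Tiparp window held the core 1 time, on the opposite strand, 136 to 132 bases before the start, and the Cyp1a2 window held neither motif. Both strands of 33465 promoter windows of the same length were searched, and 25.9% held GCGTG and 4.094% held TNGCGTG. The base composition differed too, with 44% G and C for Cyp1a2, 59.2% for Cyp1b1 and 74.8% for Tiparp. The Cyp1b1 window lies inside the span that the same build annotates to the gene (chr6:21093927-21103091), whose first base is farther upstream. A match is a match of letters only, and binding was not measured. Bases farther upstream were not searched, so a window without the core does not show that the gene lacks it. Cyp1a1 and Aldh3a1 had no window.

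Cyp1a1, which oxidises polycyclic aromatic hydrocarbons and is the classic readout of the receptor, rose strongly with ANIT and with MDA. In ANIT livers its level was 13.03, 13.33 and 12.97, against 9.39, 9.31 and 9.04 with corn oil at 5 ml/kg. In MDA livers it was 13.10, 14.31 and 13.99, against 10.56, 9.90 and 10.32 with 35% ethanol. Every treated rat therefore stood far above every vehicle rat, and the lowest MDA rat still exceeded the highest ethanol rat by more than a doubling. The log2 change was 3.87 ± 0.13 for ANIT, which is 14.6-fold (95% interval 11.9 to 18, adjusted p = 2.58e-05), and 3.54 ± 0.29 for MDA, which is 11.6-fold (7.27 to 18.6, adjusted p = 0.000437). By size of rise, Cyp1a1 was number 3 of 14217 genes with ANIT and number 4 with MDA. Under the methods' t-test with adjusted p, the call was lost for MDA and kept for ANIT. The gene (Entrez 24296) lies at chr8:66991940-66998014 in GRCr8, next to Cyp1a2.

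The other drugs left no call on Cyp1a1. APAP livers had 9.32, 9.44 and 9.89, against 9.26, 9.33 and 9.27 with corn oil at 2 ml/kg, a change of 0.26 ± 0.14 (adjusted p = 0.568). DCLF livers had 9.52, 9.45 and 9.32, against 9.67 and 9.44 with water, a change of -0.12 ± 0.10 (adjusted p = 0.664). The groups overlapped in both cases, and the APAP rat at 9.89 was the only one to stand clear of the vehicles of that study. The 95% interval of the change ran from -0.06 to 0.58 for APAP and from -0.37 to 0.13 for DCLF.

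**Figure D1:**
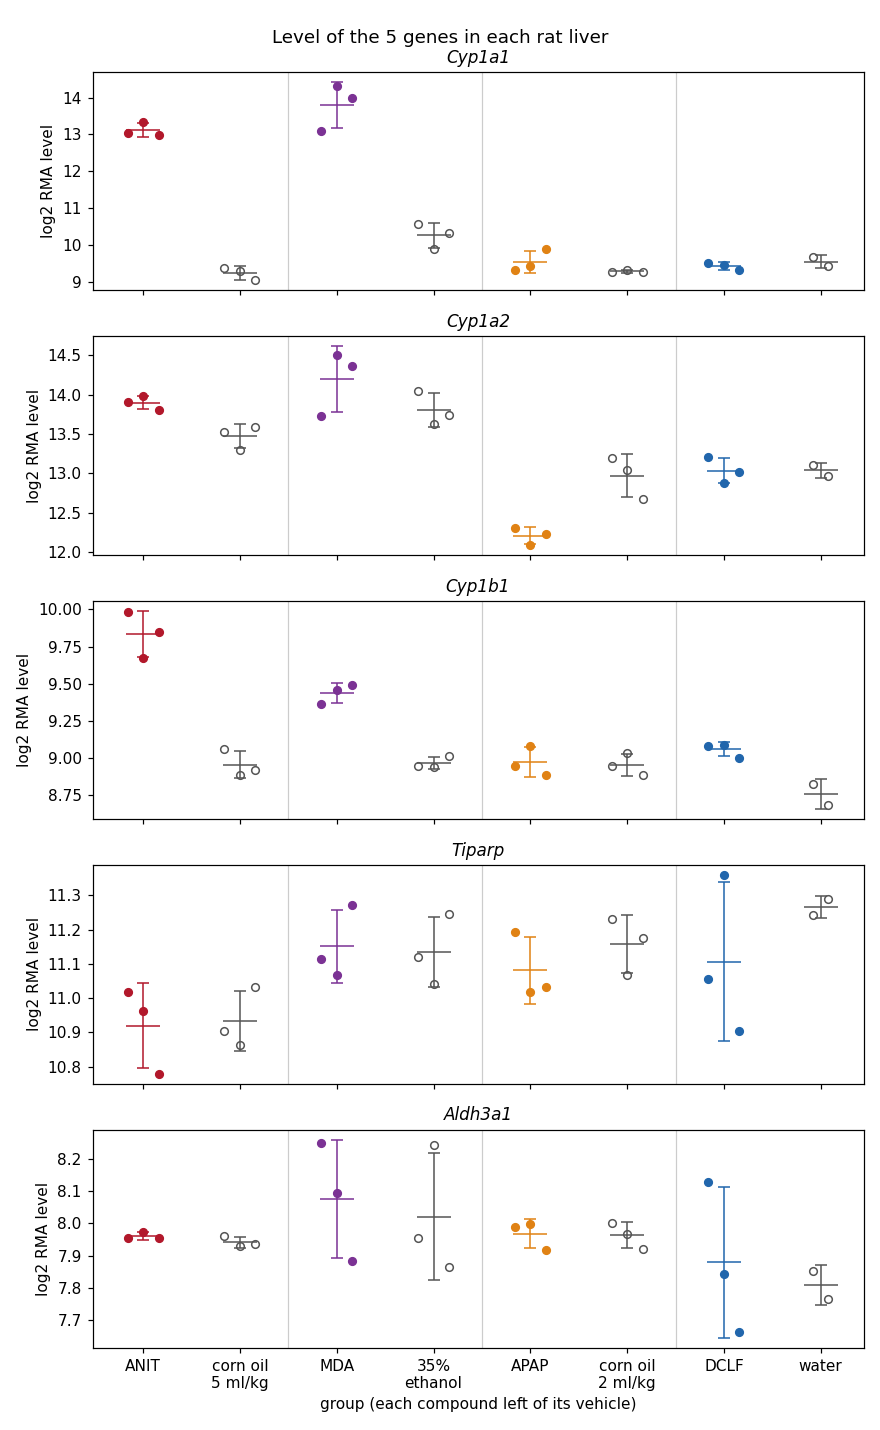
Log2 RMA level (vertical axis, a separate scale in each panel) of each of the 5 genes in each rat liver. Points are rats, filled for compounds and open for vehicles, with the group mean as a bar and the SD as an error bar (n = 3, 2 for water). ANIT and MDA rats stand apart from their vehicles for Cyp1a1 and Cyp1b1, APAP rats lie below theirs for Cyp1a2, and Tiparp and Aldh3a1 stay within 10.78 to 11.36 and 7.66 to 8.25.

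The level of Cyp1a1 also differed among vehicles. The 35% ethanol rats, at 9.90 to 10.56, were above every rat given another vehicle, APAP or DCLF. By group mean the order was MDA (13.80 ± 0.63, SD), ANIT (13.11 ± 0.19), 35% ethanol (10.26 ± 0.33), water (9.55 ± 0.17), APAP (9.55 ± 0.30), DCLF (9.43 ± 0.10), corn oil at 2 ml/kg (9.29 ± 0.04) and corn oil at 5 ml/kg (9.24 ± 0.18). Neighbours overlapped in their ranges except ANIT with 35% ethanol and 35% ethanol with water. Ethanol was used in a single in-life study, so vehicle and study cannot be told apart here. Corn oil at 2 ml/kg against water, inside the same study, gave -0.27 ± 0.09 (adjusted p = 0.734).

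Cyp1a2, which metabolises caffeine and aromatic amines, was called with no compound, and its largest shift was downward. In APAP livers its level was 12.31, 12.09 and 12.23, against 13.20, 13.04 and 12.67 with corn oil at 2 ml/kg. All 3 APAP rats were below all 3 vehicle rats and were the lowest of the 23. The change was -0.76 ± 0.14, or 1.69-fold lower, and missed the threshold (adjusted p = 0.0966). It passed when all 8 groups shared a single fit, and also without corn oil 2 ml/kg replicate 3, the lowest vehicle, where the change was -0.91. The gene (Entrez 24297) lies at chr8:66971261-66978149.

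With ANIT, Cyp1a2 was 13.91, 13.98 and 13.81, against 13.52, 13.30 and 13.59 in its vehicle. These groups did not overlap and the adjusted p was 0.0351, but the change of 0.42 ± 0.10 (1.34-fold) was under the fold threshold. With MDA it was 13.73, 14.50 and 14.36, against 14.05, 13.63 and 13.74, which overlap, and the change was 0.39 ± 0.20 (adjusted p = 0.281). Without MDA replicate 1, the lowest of the MDA rats for Cyp1a1 as well, the change was 0.63 and passed. DCLF livers had 13.20, 12.88 and 13.02, against 13.11 and 12.97 with water, a change of -0.0055 ± 0.11 (adjusted p = 0.987).

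Cyp1b1, which hydroxylates estradiol and activates aromatic procarcinogens, rose with ANIT. Its level was 9.99, 9.67 and 9.85 in ANIT livers, against 9.06, 8.89 and 8.92 with corn oil at 5 ml/kg, a change of 0.88 ± 0.10 (1.84-fold, adjusted p = 0.00234). This call was lost under the methods' t-test with adjusted p. The mean of Cyp1b1 over all rats stood at percentile 53.4 of all probe sets. Without a detection call, it cannot be told how far its vehicle level exceeds background. In MDA livers Cyp1b1 was 9.36, 9.46 and 9.49, against 8.94, 8.94 and 9.01 with 35% ethanol. These groups did not overlap, and the change of 0.47 ± 0.08 had an adjusted p of 0.0081 but, at 1.39-fold, stayed under the fold threshold. The gene (Entrez 25426) lies at chr6:21093927-21103091.

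With APAP, Cyp1b1 was 8.95, 9.08 and 8.89, against 8.95, 9.03 and 8.88, a change of 0.018 ± 0.08 (adjusted p = 0.958). With DCLF it was 9.08, 9.09 and 9.0, against 8.83 and 8.68 with water. Those DCLF and water groups did not overlap, and the change of 0.30 ± 0.08 was not called (adjusted p = 0.301). The 2 water rats were also below every rat given another vehicle. Corn oil at 2 ml/kg stood 0.20 ± 0.09 above water for this gene (adjusted p = 0.734).

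Cell type markers moved in the same livers in which Cyp1b1 was higher. Of 10 stellate cell and fibroblast markers, 4 rose and 1 fell with ANIT (median 0.35), and 5 rose and 2 fell with MDA (median 0.77). Their mean level per rat was 10.52 to 10.82 in ANIT livers, against 10.18 to 10.34 with corn oil at 5 ml/kg. In MDA livers it was 10.53 to 10.62, against 9.74 to 10.18 with 35% ethanol. The contractile marker Acta2 rose by 0.93 ± 0.15 and 1.38 ± 0.09 with ANIT and MDA, while Lrat, the retinol-storing enzyme of quiescent stellate cells, fell by 1.33 ± 0.32 and 1.83 ± 0.26. Of 6 macrophage markers 1 rose with ANIT and 5 with MDA. Of 5 bile duct markers 1 rose with each compound, Epcam, by 2.16 ± 0.16 with ANIT and 1.10 ± 0.14 with MDA. Of 9 hepatocyte markers 0 were called with ANIT and 1, Hnf4a, fell with MDA (-0.65 ± 0.11). Of 5 endothelial markers 2 fell with ANIT and 0 were called with MDA, and of 3 neutrophil markers 0 were called with either. With APAP and DCLF 0 markers of these lists were called, where 0.209% and 0% of all probe sets were. Over all 14217 genes 546 rose and 480 fell with ANIT, and 697 rose and 601 fell with MDA. The part of these cells in the Cyp1b1 result was not tested.

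Aldh3a1, an aldehyde dehydrogenase that AhR ligands induce in rat liver, showed no call with any compound. Its level stayed between 7.66 and 8.25 in all 23 rats, and the changes were 0.019 ± 0.07 for ANIT, 0.055 ± 0.13 for MDA, 0.005 ± 0.07 for APAP and 0.071 ± 0.14 for DCLF. In ANIT livers, where Cyp1a1 was 14.6-fold higher, Aldh3a1 was 7.95 to 7.97, against 7.93 to 7.96 with corn oil at 5 ml/kg. Those ranges overlap, and the 95% interval of the change ran from -0.14 to 0.18. The deposited values carry no detection call, so a level this low cannot be set apart from background here. The gene (Entrez 25375) lies at chr10:46392464-46402151.

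Tiparp, which encodes an ADP-ribosyltransferase that modifies and represses AhR, was not called on its representative probe set. Over all rats it ran from 10.78 to 11.36, and the changes were -0.014 ± 0.09 for ANIT, 0.016 ± 0.10 for MDA, -0.077 ± 0.08 for APAP and -0.16 ± 0.13 for DCLF. A second, dimmer probe set of the gene, from 8.0 to 9.44, differed from the first in APAP livers, where it was -0.73 ± 0.24 (adjusted p = 0.353, not called). It gave 0.056 ± 0.10 for ANIT, -0.0048 ± 0.11 for MDA and -0.36 ± 0.24 for DCLF, none of them called. The gene (Entrez 310467) lies at chr2:152063769-152090414.

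**Figure D2:**
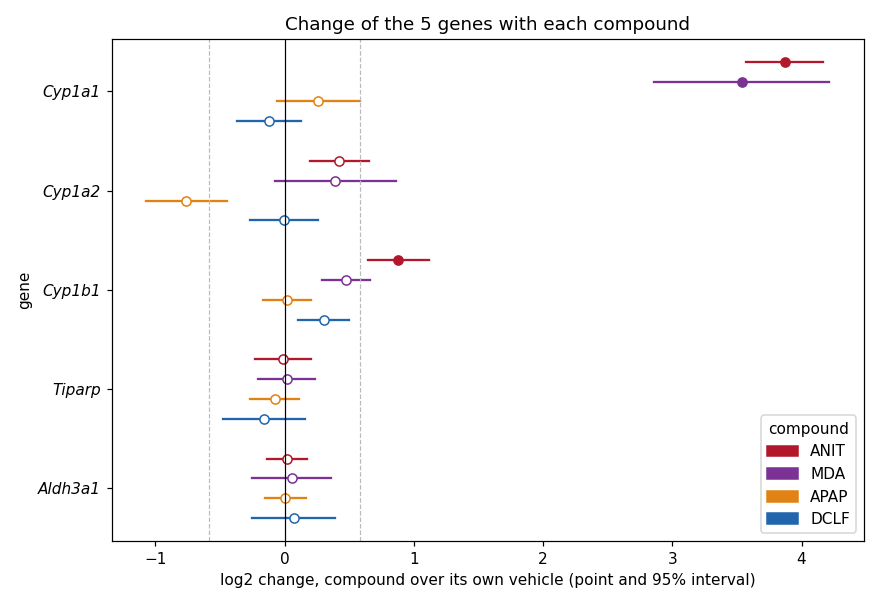
Log2 change of each gene, compound over its own vehicle, with its 95% interval (horizontal axis). Filled points passed both thresholds, open points did not, and dashed lines mark a 1.5-fold change. Cyp1a1 lies at 3.87 with ANIT and 3.54 with MDA, and Cyp1b1 at 0.88 with ANIT, and every other point is open.

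The members called are set beside the share of all probe sets called in the same comparison. The members were chosen with earlier results of these data known, so a gap between these shares is a description and no test. With ANIT 2 of 5 members were called, both higher, where 5.38% of all probe sets were called, and the members' median change was 0.42 against -0.017 over all probe sets. With MDA it was 1 of 5, higher, where 7.02% of all probe sets were called, and the medians were 0.39 and -0.00095. With APAP limma called 0 of 5, where 0.209% of all probe sets were called, and 1 of the 5 and 3183 probe sets had an unadjusted p under 0.05. With DCLF limma called 0 of 5 and 0% of probe sets, although 1 member and 3885 probe sets had an unadjusted p under 0.05. Corn oil at 2 ml/kg against water also gave 0 of 5 and 0%, with 1 member and 2107 probe sets at an unadjusted p under 0.05. The methods' t-test with adjusted p gave 0 members in these 3 comparisons. Groups did not overlap for 3 of 5 members with ANIT, where this held for 28.8% of all probe sets, and for 2 with MDA, where it held for 30%. The count was 1 with APAP, where 16% of all probe sets did not overlap, and 1 with DCLF, where 31.6% did not. Between corn oil at 2 ml/kg and water it was 4 of 5, where 24.5% of all probe sets did not overlap and only 2 rats had water.

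The order of the rats within a group agreed between Cyp1a1 and Cyp1a2 in some groups only. In ANIT livers replicate 2 was highest and replicate 3 lowest for both Cyp1a1 and Cyp1a2. The same held in MDA livers, where replicate 2 was highest and replicate 1 lowest for both. Cyp1b1 did not follow that order in either group. Over all 23 samples, each centred on its vehicle mean, Cyp1a1 correlated at r = 0.86 with Cyp1b1 and 0.62 with Cyp1a2, and at 0.16 with Tiparp and 0.03 with Aldh3a1. These r values include the shift of whole groups from their vehicles, so they do not measure how rats of a group varied together. They describe arrays that share vehicles and carry no test.

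ANIT and MDA could not be separated on Cyp1a1. The difference between their changes was 0.33 ± 0.36, with a 95% interval from -0.46 to 1.12. The sign depended on MDA replicate 1, without which the difference was -0.02. For Cyp1b1 the ANIT change exceeded the MDA change by 0.41 ± 0.13 (0.13 to 0.68, adjusted p = 0.178), and for Cyp1a2 by 0.032 ± 0.25 (-0.51 to 0.57). None of the 5 members was called in this difference, where 1.16% of probe sets were, and 1 member and 3551 probe sets had an unadjusted p under 0.05. Compound, vehicle and study differ together between ANIT and MDA, whose doses in mg/kg were equal, so each of these values is a difference between study arms. In the other pairs of compounds, given below, the dose differs as well, and only APAP and DCLF share a study.

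Set against APAP, ANIT differed on all 3 Cyp1 genes. The difference between the changes was 3.61 ± 0.20 for Cyp1a1 (adjusted p = 3.17e-06), 1.18 ± 0.18 for Cyp1a2 (adjusted p = 0.00248) and 0.86 ± 0.13 for Cyp1b1 (adjusted p = 0.0026). These 3 of 5 members were called where 4.07% of probe sets were. For Cyp1a2 the difference joins a change of 0.42 with ANIT and -0.76 with APAP, neither called alone. MDA minus APAP gave 3.28 ± 0.37 for Cyp1a1 (adjusted p = 0.000556) and 1.15 ± 0.27 for Cyp1a2 (adjusted p = 0.0255), so 2 of 5 were called where 5.09% of probe sets were. That call on Cyp1a2 was lost when any of 7 single rats was left out, with the difference between 1.0 and 1.12 and the adjusted p between 0.0503 and 0.0673. Those rats were replicates 1 and 2 of corn oil at 2 ml/kg, replicate 2 of APAP, replicates 2 and 3 of 35% ethanol and replicates 2 and 3 of MDA.

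Against DCLF only Cyp1a1 was called. The difference was 3.99 ± 0.18 for ANIT minus DCLF (adjusted p = 2.9e-06) and 3.66 ± 0.38 for MDA minus DCLF (adjusted p = 0.000553), so 1 of 5 members was called in each, where 3.58% and 3.69% of probe sets were. Cyp1b1 came close for ANIT minus DCLF, at 0.58 ± 0.14 with an adjusted p of 0.0375 and a ratio of 1.49, just under the fold threshold. It passed without ANIT replicate 2 or without corn oil 5 ml/kg replicate 1, at 0.66 and 0.63. APAP minus DCLF called 0 of 5, where 0.0709% of probe sets were called, and 2 members and 3852 probe sets had an unadjusted p under 0.05. Cyp1a2 was the larger of these, at -0.75 ± 0.19 (adjusted p = 0.184).

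**Figure D3:**
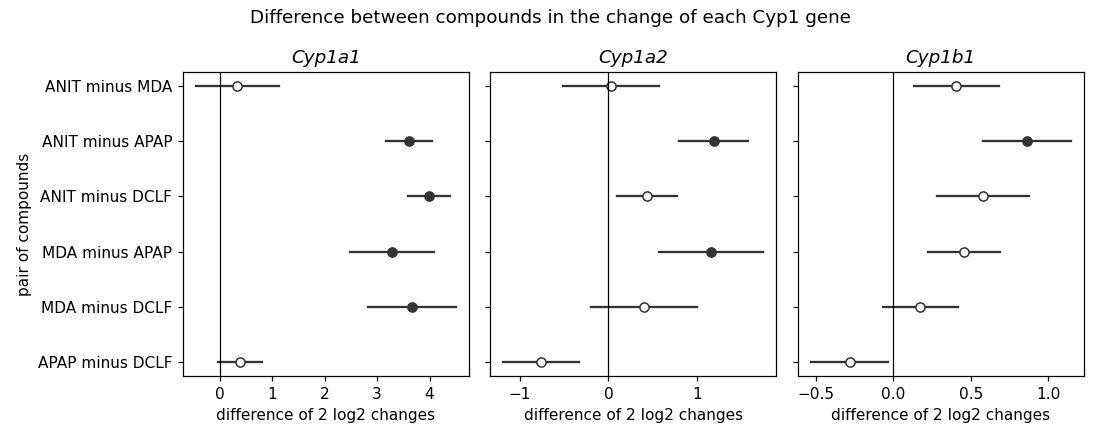
Difference between the log2 changes of 2 compounds (horizontal axis, a separate scale in each panel) for the 3 Cyp1 genes, with its 95% interval. Filled points passed both thresholds. For Cyp1a1 all 4 pairs that set ANIT or MDA against APAP or DCLF are filled, from 3.28 to 3.99, while ANIT minus MDA lies at 0.33.

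The receptor's own machinery gave a single call. Of 8 genes listed for AhR signalling 6 were measured, and 1 was called, Ahr itself, with ANIT, where 5.38% of all probe sets were called. Its level was 9.92, 9.79 and 10.04 in ANIT livers, against 9.32, 9.17 and 9.42 with corn oil at 5 ml/kg, a change of 0.61 ± 0.10 (adjusted p = 0.00946). The groups did not overlap, but a second probe set of Ahr gave -0.12 ± 0.10 (adjusted p = 0.535), so the 2 probe sets disagree. With MDA the representative probe set changed by 0.29 ± 0.16 (adjusted p = 0.329).

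In the APAP and DCLF arms the representative probe set of Ahr gave lower mean levels without a call. APAP livers had 8.62, 8.68 and 9.16, against 9.88, 9.25 and 9.05 with corn oil at 2 ml/kg (-0.58 ± 0.22, adjusted p = 0.44). DCLF livers had 8.58, 8.99 and 9.13, against 9.43 and 9.79 with water (-0.71 ± 0.18, adjusted p = 0.297). The APAP groups overlapped and the DCLF groups did not. The difference between the ANIT change and these was called, at 1.19 ± 0.27 for ANIT minus APAP (adjusted p = 0.0261) and 1.33 ± 0.22 for ANIT minus DCLF (adjusted p = 0.00673). The second probe set did not follow, with changes of -0.012 ± 0.11 for APAP and 0.061 ± 0.08 for DCLF. Its differences were -0.11 ± 0.15 for ANIT minus APAP (adjusted p = 0.764) and -0.18 ± 0.12 for ANIT minus DCLF (adjusted p = 0.505), so the called differences rest on 1 of 2 probe sets.

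The partner Arnt changed by -0.19 ± 0.11 with ANIT, -0.35 ± 0.16 with MDA, -0.055 ± 0.08 with APAP and -0.21 ± 0.13 with DCLF, and none was called. Ahrr, the repressor that AhR ligands induce in many tissues, changed by -0.065 ± 0.07, -0.031 ± 0.10, 0.060 ± 0.10 and 0.047 ± 0.13 in the same order. The level of Ahrr lay between 7.80 and 8.29 in all rats. Without a detection call, a level this low cannot be set apart from background, as for Aldh3a1. The list's median change was -0.13 with ANIT and 0.052 with MDA. Arnt2, Hsp90ab1 and Ptges3 were not called with any compound.

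Other genes that AhR ligands can induce did not, as a list, follow Cyp1a1. Of 12 listed 9 were measured, and Ugt1a6, Ugt1a7c and Gsta2 were not. Among the 9, 1 rose and 1 fell with ANIT, 1 rose and 1 fell with MDA, and 2 rose with APAP. With DCLF 0 of 9 were called. The share of all probe sets called was 5.38% with ANIT, 7.02% with MDA, 0.209% with APAP and 0% with DCLF. The list's median change was -0.17 with ANIT, 0.21 with MDA, 0.21 with APAP and -0.14 with DCLF.

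Nqo1, a quinone reductase that is also a target of the oxidative stress factor Nrf2, rose with 3 compounds. It was 13.39, 13.52 and 13.27 in APAP livers, against 11.89, 11.83 and 11.66 with corn oil at 2 ml/kg, a change of 1.60 ± 0.09 (adjusted p = 0.00105). In ANIT livers it changed by 0.82 ± 0.14 (adjusted p = 0.0113) and in MDA livers by 1.02 ± 0.16 (adjusted p = 0.00482). The ANIT change was below the APAP change by a called difference (-0.77 ± 0.18, adjusted p = 0.0279), whereas for Cyp1a1 the called difference in the same pair was 3.61. For MDA minus APAP the Nqo1 difference was -0.58 ± 0.20 (adjusted p = 0.117).

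Ugdh, which makes UDP-glucuronic acid for conjugation, rose with APAP by 1.12 ± 0.11 (adjusted p = 0.0104). It changed by -0.41 ± 0.09 with ANIT and 0.43 ± 0.11 with MDA, both under the fold threshold, and the APAP change exceeded each by a called difference (-1.53 ± 0.14 for ANIT minus APAP and -0.68 ± 0.16 for MDA minus APAP). Fmo1, a flavin monooxygenase, went the other way. It was 9.84, 9.94 and 10.09 in ANIT livers, against 12.07, 11.90 and 12.25 with corn oil at 5 ml/kg, a change of -2.12 ± 0.11 (adjusted p = 0.000141). In MDA livers it changed by -1.12 ± 0.25 (adjusted p = 0.0217), and in APAP livers by -1.01 ± 0.23 without a call (adjusted p = 0.194).

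**Figure D4:**
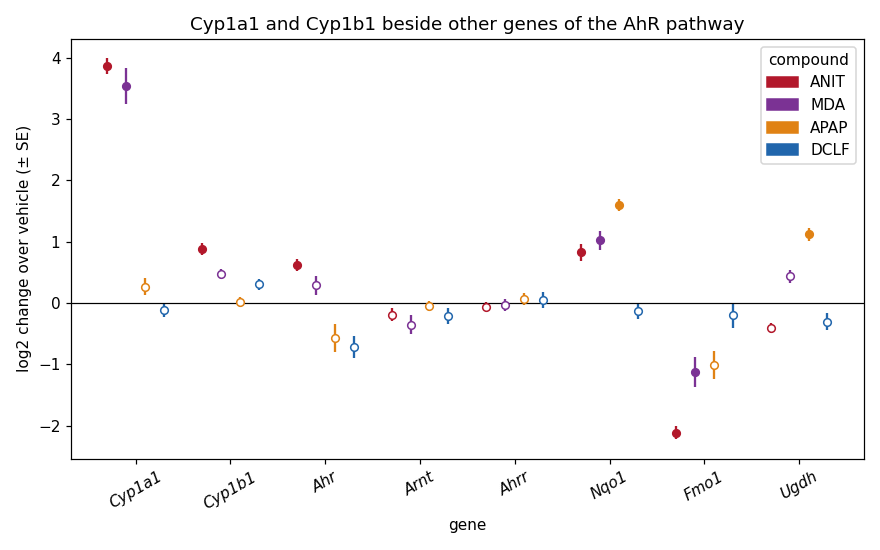
Log2 change over vehicle (vertical axis, ± SE) of Cyp1a1 and Cyp1b1 beside 6 other genes of the AhR pathway, coloured by compound. Filled points passed both thresholds. Cyp1a1 is high with ANIT (3.87) and MDA (3.54) only, whereas Nqo1 is highest with APAP (1.60) and Fmo1 is lowest with ANIT (-2.12).

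Among the other drug-metabolising P450 genes, more fell than rose in the livers in which Cyp1a1 rose, and most were not called. Of 29 genes of families 2 and 3 measured, 2 rose, 11 fell and 16 were not called with ANIT (median -0.28). With MDA 1 rose, 7 fell and 21 were not called (median -0.29). Cyp2c11, the main male-specific P450 of rat liver, fell by 2.45 ± 0.12 with ANIT and by 1.28 ± 0.15 with MDA, while Cyp2c22 rose by 0.86 ± 0.21 and 1.66 ± 0.12. Close paralogs among these genes may share probe signal. With APAP and DCLF 0 of the 29 were called, where 0.209% and 0% of all probe sets were. Over all 14217 genes 546 rose and 480 fell with ANIT, and 697 rose and 601 fell with MDA.

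Genes of tryptophan breakdown, whose products include AhR ligands, were lower where they were called. Of 6 measured, 2 fell with ANIT and 3 with MDA. Over all 14217 genes 480 fell with ANIT and 601 with MDA. With APAP and DCLF 0 of the 6 were called, where 0.209% and 0% of all probe sets were. Kynu, which cleaves kynurenine, fell by 1.43 ± 0.12 with ANIT and by 0.98 ± 0.12 with MDA. Tdo2, which opens the ring of tryptophan in the liver, fell by 0.76 ± 0.12 with MDA, and Kmo fell by 0.59 ± 0.11 with ANIT. Haao fell by 0.64 ± 0.12 with MDA.

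The genes whose pattern was most like that of Cyp1a1 over the 23 vehicle-centred samples were Tsx (r = 0.985), Neurl3 (r = 0.973) and Rnd1 (r = 0.972). Tsx changed by 4.22 with ANIT and 3.98 with MDA, and by -0.15 with APAP and -0.14 with DCLF. Those nearest to Cyp1b1 were the glutathione transferase gene Gstm3 (r = 0.949), the collagen-modifying lysyl hydroxylase gene Plod2 (r = 0.939) and Ppl (r = 0.937). Gstm3 changed by 3.20 with ANIT, 1.59 with MDA, -0.03 with APAP and 0.19 with DCLF. Its value was higher with ANIT than with MDA, as for Cyp1b1, whose own difference was not called. These genes were picked by correlation in these same samples, so a shared order of the compounds largely follows from the choice. The arrays share vehicles and studies, and these likenesses are a description.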

How the data were processed

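Total RNA from 23 rat livers had been run, biotin-labelled, on single-colour Affymetrix rat genome arrays. The deposited table held log2 expression values of 31099 probe sets that the authors had normalised by RMA in Array Studio. The sample medians ran from 8.95 to 9.02, and no further scaling was applied. The 57 Affymetrix controls were left out of the tests.

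The platform annotation gave the gene of each probe set: 20826 carried a single gene, 436 several and 9780 none. Of the first, 20758 matched a RefSeq name table (GRCr8), which also gave the coordinates. Each comparison was fitted with limma 3.58.1 in R 4.3.3 on the groups compared only, with empirical Bayes moderation and two-sided p-values adjusted by Benjamini-Hochberg over 31042 probe sets. Differences between compounds were contrasts over their groups. The fit was tested on simulated data. The alternatives covered normalisation, filtering, the choice of probe set, the pool of groups, leaving out each rat, and the methods' t-test (two-sided, unadjusted p under 0.01 or adjusted p under 0.05, fold over 1.5). With 3 against 3 the smallest exact p of a permutation test is 0.1, and 0.2 with 3 against 2, so none was used.

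The members and gene lists were chosen with earlier results of these data known. Beyond the members, genes were named from those lists, and the 3 genes nearest to Cyp1a1 and to Cyp1b1 by correlation.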

Additional observations from a re-analysis of the deposited data

Results flagged for a closer look

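These 7 results stood out because the change with a compound differed from the change with another by limma's test of the difference itself. For Cyp1a1 the differences were 3.61 for ANIT minus APAP, 3.99 for ANIT minus DCLF, 3.28 for MDA minus APAP and 3.66 for MDA minus DCLF. For Cyp1a2 they were 1.18 for ANIT minus APAP and 1.15 for MDA minus APAP. For Cyp1b1 the difference was 0.86 for ANIT minus APAP. Each crosses in-life studies, so study, vehicle and dose cannot be told apart from the compound.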

How the results depend on the processing

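No paired analysis was possible because compound and vehicle rats were different animals and their numbers were assigned in sample order. Cyp1a1 kept its call with ANIT under all 16 alternatives run, and with MDA under 15 of 16, the exception being the methods' t-test with adjusted p. Some of these alternatives could not have lost the call. Cyp1a1 has a single probe set that names it alone, so the choices of probe set repeat the main fit. Dropping the fold threshold cannot lose a call either. With the methods' t-test and adjusted p the members called were 1 for ANIT and 0 for MDA. With the adjusted p alone and no fold threshold they were 3 for ANIT, 2 for MDA and 2 for ANIT minus DCLF. Cyp1b1 also gained a call for MDA minus APAP under that setting. With all 8 groups in a single fit, 1 member was called for APAP. Leaving out each rat gave 1 to 2 members for MDA, 0 to 1 for APAP, 1 to 2 for ANIT minus DCLF and 1 to 2 for MDA minus APAP, where the rat that decided a call was MDA replicate 1 for MDA (Cyp1a2) and corn oil 2 ml/kg replicate 3 for APAP (Cyp1a2).

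Signs turned only for values that were not called. For Tiparp, ANIT gave 0.034 with quantile normalisation, 0.00017 with median centring, 0.021 with the mean of its probe sets and 0.056 with the probe set of largest SD. That last choice gave -0.0048 for MDA, -0.37 for APAP minus DCLF and 0.061 for ANIT minus MDA, and the mean of probe sets gave -0.14 and 0.015 for those differences. Quantile normalisation gave -0.031 for APAP minus DCLF. For Aldh3a1 with APAP, quantile normalisation gave -0.0084 and median centring -0.0088, and for Cyp1a2 with DCLF they gave 0.041 and 0.011. The cause was not tested.

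Leaving out each rat, Tiparp ranged from -0.063 to 0.056 for ANIT, -0.044 to 0.071 for MDA, -0.018 to 0.21 for APAP minus DCLF, and -0.085 to 0.040 for ANIT minus MDA. Aldh3a1 ranged from -0.032 to 0.17 for MDA, -0.016 to 0.031 for APAP, -0.054 to 0.18 for DCLF, -0.15 to 0.051 for ANIT minus MDA, -0.012 to 0.035 for ANIT minus APAP, -0.16 to 0.073 for ANIT minus DCLF, -0.037 to 0.16 for MDA minus APAP, -0.12 to 0.11 for MDA minus DCLF and -0.17 to 0.059 for APAP minus DCLF. Cyp1a2 ranged from -0.089 to 0.070 for DCLF, -0.19 to 0.078 for corn oil 2 ml/kg against water and -0.20 to 0.18 for ANIT minus MDA. Cyp1b1 ranged from -0.037 to 0.060 for APAP and Cyp1a1 from -0.020 to 0.58 for ANIT minus MDA. Of 975 single-gene alternatives, 905 kept direction and side of the threshold, 52 turned sign, 9 lost a call and 9 gained one. The choices of probe set repeat the main value for every member but Tiparp. Dropping the fold threshold cannot turn a sign or lose a call. Part of the 905 was therefore fixed in advance.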
